A study of Homo sapiens with 6 samples.

Results

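The 10 genes described here encode receptors and adaptors, and the kinase PINK1, of mitophagy, the removal of mitochondria by autophagy. They were followed in anaplastic thyroid cancer (ATC) cells after knockdown of NUF2. They are BNIP3, BNIP3L, FUNDC1, FKBP8, PINK1, SQSTM1, OPTN, NBR1, TAX1BP1 and CALCOCO2, 10 of the 32985 genes in the deposited file, and they were chosen by gene name. The set was chosen because BNIP3L was lower in siNUF2 cells in this same comparison, so its level and call are given as a description. RNA-seq was made from 8505C cells, an established ATC line, transfected with control siRNA (siCtrl, 3 libraries, WT in the labels) or with siRNA against NUF2 (siNUF2, 3 libraries, NUF2 knockdown in the labels). NUF2 is a subunit of the NDC80 complex that attaches kinetochores to spindle microtubules, and the labels give 24 h for all 6 libraries. All values come from 1 cell line and 1 NUF2 siRNA sequence, and no label says that libraries of a group came from separate cultures, so p-values measure the spread between these libraries, which may be technical. In bulk RNA, fewer cells with a transcript and less of it per cell cannot be told apart.

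Mitophagy needs a molecular link between a damaged or surplus mitochondrion and the growing autophagosome membrane. Receptors anchored in the outer mitochondrial membrane, such as BNIP3, BNIP3L (also called NIX), FUNDC1 and FKBP8, bind ATG8 proteins on that membrane directly. In the other route the kinase PINK1 accumulates on damaged mitochondria and phosphorylates ubiquitin, and soluble adaptors that read ubiquitin, such as SQSTM1 (p62), OPTN, NBR1, TAX1BP1 and CALCOCO2 (NDP52), then tie the organelle to ATG8 proteins. BNIP3 and BNIP3L are textbook targets of hypoxia-inducible factor (HIF), and FOXO3 is also known to drive BNIP3 in muscle.

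Each library held between 61257859 and 69755291 counts on genes, and mitochondrial genes took 5.46% to 6.70% of them with control siRNA and 6.54% to 7.06% after NUF2 knockdown. NUF2 itself, in FPKM (fragments scaled to gene length and to library size), was at 14.8, 14.5 and 12.2 for siCtrl and at 1.53, 2.05 and 1.56 for siNUF2, a log2 fold change of -2.99 (SE 0.168, adjusted p = 0.00051). KRT7, KRT8, KRT18 and VIM were at 72.0 FPKM or more in every library, NKX2-1 was between 14.6 and 21.5, PAX8 was between 0.379 and 0.774, and the thyroid function genes TG and SLC5A5 did not exceed 0.0143. Of 5 markers of other cell types, PTPRC, CD3E, PECAM1 and VWF were at most 0.518 FPKM and CD68 was between 3.48 and 6.82. TSHR, which stood on the same marker list, was not analysed here.

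2 sets of sequences bear on the genes below, the seed site of the NUF2 siRNA and the HIF-type core letters of the promoters. Bases 2 to 8 of the antisense strand of the siRNA, which can pair with 3′ UTRs as the seed of a miRNA does, are complementary to TATGGAA. In the longest 3′ UTR of each gene (GENCODE release 44, GRCh38), BNIP3L was the only one of the 10 genes with this 7-base site, against 1637 of 10173 tested genes with a 3′ UTR (16.1%). The shorter 6-base core ATGGAA was present in 5 of the 10 genes (50%) and in 46.2% of all tested genes with a 3′ UTR. The windows of the genes with the core but without the full site are shown because they differ from TATGGAA only in the base before the capitals, which mark ATGGAA. All are on the plus strand.
TAX1BP1, chr7:27842450-27842455: ttaatactgagATGGAAttcgaagcagt
TAX1BP1, chr7:27843465-27843470: gcactgaaaacATGGAAggcagtgtaag
OPTN, chr10:13137512-13137517: catgtaattagATGGAAgaaacctcact
CALCOCO2, chr17:48864531-48864536: ggactgaacaaATGGAAataactcccag
PINK1, chr1:20650835-20650840: gggcttggcaaATGGAAgaacttgagtg

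The letters ACGTG or GCGTG, the core of the element that HIF binds, were counted on both strands of RefSeq promoters (GRCh38.p14, 250 bases before to 50 after the start). Promoters were matched for 7 of the 10 genes, with no entry for BNIP3L, FKBP8 and PINK1. BNIP3 held 6 matches, 2 of them the overlapping ACGTG of both strands in 1 CACGTG, and 324 of 35116 promoters (0.923%) held as many or more. Of all promoters 17012 (48.4%) held at least 1 match. Those of CALCOCO2 and NBR1 held 1 each, 1 of the promoters of TAX1BP1 held 1, and those of FUNDC1, SQSTM1 and OPTN held 0. The BNIP3 promoter is shown because its matches stand close together. It lies on the minus strand at chr10:131981874-131982173, and capitals mark the matched letters as read on this strand, where CACGC and CACGT are the other strand's GCGTG and ACGTG.
BNIP3: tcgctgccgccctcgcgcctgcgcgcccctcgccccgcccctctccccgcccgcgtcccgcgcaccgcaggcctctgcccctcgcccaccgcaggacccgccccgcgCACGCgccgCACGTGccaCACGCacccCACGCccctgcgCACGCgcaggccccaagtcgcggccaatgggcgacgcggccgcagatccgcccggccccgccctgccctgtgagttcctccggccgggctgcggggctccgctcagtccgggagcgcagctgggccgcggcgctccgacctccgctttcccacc

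The level of each gene in each library is shown in the plot of FPKM by gene. In siCtrl cells SQSTM1 had the highest mean, 75.4 FPKM, followed by FKBP8 (43.0), BNIP3 (34.4) and BNIP3L (28.5). FUNDC1 (13.4), NBR1 (12.9) and PINK1 (11.2) came next, and TAX1BP1 (8.69), CALCOCO2 (6.81) and OPTN (6.79) were lowest. The libraries of FKBP8 and BNIP3 overlapped, as did those of BNIP3 and BNIP3L, FUNDC1 and NBR1, NBR1 and PINK1, and CALCOCO2 and OPTN, so these neighbours in the order did not differ beyond their spread. In siNUF2 cells BNIP3L, at 13.5 FPKM, stood below NBR1 at 16.3, and the libraries of BNIP3, NBR1, BNIP3L, FUNDC1 and PINK1 overlapped from each gene to the next.

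**Figure D1:**
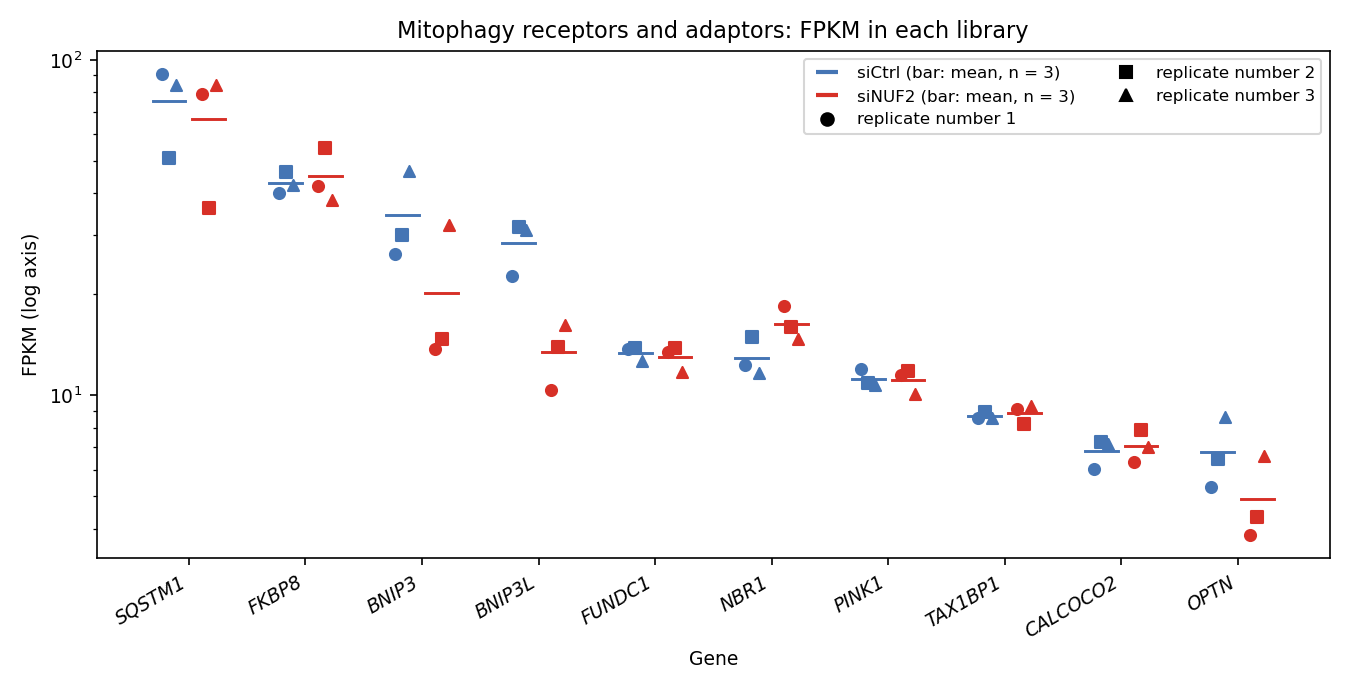
FPKM (log axis) of the 10 genes in each of 3 siCtrl (blue) and 3 siNUF2 (red) libraries, with the symbol giving the replicate number and the bar the mean. BNIP3L is the only gene whose siCtrl libraries (22.7 to 31.7) and siNUF2 libraries (10.3 to 16.2) do not overlap, and in BNIP3 and OPTN number 3 is highest in both groups.

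The deposited counts of genes averaging 1 FPKM or more were compared with edgeR's quasi-likelihood test, and a gene was called where its Benjamini-Hochberg adjusted p over all genes tested was under 0.05. All 10 genes passed the filter, and of them 1 was called, BNIP3L, against 3.99% of the 11725 genes tested (468, of which 179 were higher and 289 lower in siNUF2 cells). Libraries of the same replicate number deviated together in both groups, so a second fit held the replicate number as a block. This fit called 4 of the 10 genes, BNIP3L, BNIP3 and OPTN as lower and NBR1 as higher, against 14.5% of all genes tested. The median log2 fold change of the 10 genes was -0.00 and that of all genes tested was 0.01. BNIP3L was also the only one of the 10 genes whose groups did not overlap in FPKM, where 23.9% of all genes tested did not overlap. BNIP3L was called at an adjusted p of 0.0250, and the nearest gene outside the threshold was NBR1 at 0.191. Since BNIP3L chose the set in this contrast, nothing is read from its own part of these counts.

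**Figure D2:**
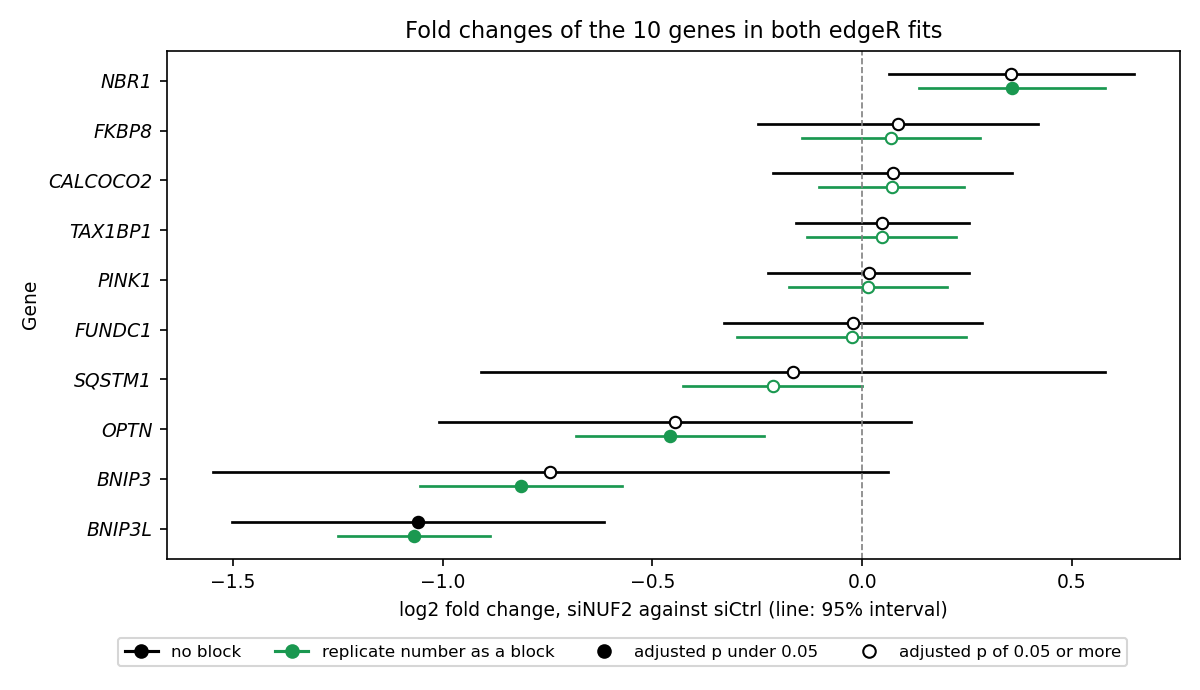
log2 fold change (siNUF2 against siCtrl, x axis) of each gene with its 95% interval, without the replicate block (black) and with it (green), filled where the adjusted p is under 0.05. BNIP3L lies at -1.06 and is filled in both fits, whereas BNIP3, OPTN and NBR1 are filled with the block only.

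BNIP3L (ENSG00000104765, chr8:26383054-26413127), the outer membrane receptor known for clearing mitochondria from maturing red blood cells, was at 22.7, 31.7 and 31.1 FPKM in siCtrl libraries 1, 2 and 3. In the siNUF2 libraries it was at 10.3, 13.9 and 16.2 FPKM. Every siNUF2 library lay below every siCtrl library, with means of 28.5 ± 5.02 (SD, n = 3) and 13.5 ± 2.94 (SD, n = 3), 47.3% of the siCtrl mean. These levels rested on 7603, 10647 and 9593 counts for siCtrl and on 3324, 4648 and 4824 counts for siNUF2. The log2 fold change was -1.06 (95% interval -1.50 to -0.62, SE 0.193, adjusted p = 0.0250) and -1.07 with the replicate block (SE 0.0777, adjusted p = 0.000621). Within replicate numbers 1, 2 and 3 the difference in log2 CPM (counts scaled to library size) was -1.13, -1.15 and -0.93. The call without the block was lost when siCtrl replicate 2 (adjusted p = 0.0858), siCtrl replicate 3 (0.0771), siNUF2 replicate 1 (0.0741) or siNUF2 replicate 2 (0.0716) was left out, with log2 fold changes from -1.21 to -0.89 over the 6 fits. With the block, each of the 3 fits without 1 replicate number kept the call. Such a fit holds only 2 numbers, so for this and the other genes its adjusted p leans on the spread shared over genes. It can fall as libraries are removed, here from 0.000621 to as low as 5.3e-06. A call kept in these fits therefore says little about how firm it is. The single TATGGAA of BNIP3L lies on the plus strand at chr8:26412554-26412560, at position 2142 of the 2715 nt of 3′ UTR in transcript BNIP3L-201, and is followed by an A. The median 3′ UTR over all tested genes with one was 1503 nt, and how often a site is followed by an A over all genes was not counted.

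BNIP3 (ENSG00000176171, chr10:131966455-131982013), the closest relative of BNIP3L among these receptors and a hypoxia-induced gene, was at 26.4, 30.1 and 46.6 FPKM in the siCtrl libraries. In the siNUF2 libraries it was at 13.7, 14.7 and 32.3 FPKM. Number 3 was the highest and number 1 the lowest library in both groups, and siNUF2 library 3 lay above siCtrl libraries 1 and 2, so the groups overlapped. The means were 34.4 ± 10.8 and 20.2 ± 10.4 (SD, n = 3 each), and the log2 fold change of -0.74 (95% interval -1.55 to 0.06, SE 0.350) did not pass the test without the block (adjusted p = 0.316). It moved to -0.46 without siCtrl replicate 3 and to -1.25 without siNUF2 replicate 3 (adjusted p = 0.620 and 0.0506). Replicate numbers differed by up to 1.04 on the log2 scale, a 2.05-fold difference. Within a number the siNUF2 library was lower by 0.94, 0.99 and 0.51 log2 CPM, and with the block BNIP3 was called at -0.81 (SE 0.103, adjusted p = 0.00347). It remained called in each of the 3 fits without 1 number (adjusted p from 2.3e-05 to 0.0179). The lowest of these lay below that of the full blocked fit although fewer libraries were used, so these fits do not show how firm the call is.

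The ratio of BNIP3 to BNIP3L FPKM was 1.16, 0.948 and 1.50 for siCtrl replicates 1, 2 and 3, against 1.33, 1.06 and 2.00 for siNUF2 replicates 1, 2 and 3. It was higher in the siNUF2 library of each number, and the groups overlapped. Over the 6 libraries, which share the group difference that chose BNIP3L, Pearson's r with BNIP3L on log2 CPM was 0.831 for BNIP3 and 0.821 for OPTN, ranks 886 and 959 of the genes tested. It was -0.803 for NBR1 (rank 10630), -0.355 for PINK1 and between -0.293 and 0.092 for the other 5 genes. The 3 genes with the highest r were LIFR (0.997), GOLM2 (0.996) and CNOT10 (0.993).

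FUNDC1 and FKBP8, the other outer membrane receptors, had intervals that held 0 in both fits. FUNDC1 (ENSG00000069509, chrX:44523639-44542859), a receptor for hypoxia-induced mitophagy, read 13.7, 13.8 and 12.6 FPKM for siCtrl 1 to 3 and 13.4, 13.8 and 11.7 for siNUF2 1 to 3. Its log2 fold change was -0.02 (95% interval -0.33 to 0.29, adjusted p = 0.954), and number 3 was the lowest library in both groups. FKBP8 (ENSG00000105701, chr19:18531751-18544077), an anchored prolyl isomerase relative that recruits LC3A, was at 40.2, 46.3 and 42.5 FPKM against 42.1, 54.6 and 38.1. The siNUF2 libraries spanned the whole range of the siCtrl libraries, and the log2 fold change was 0.09 (95% interval -0.25 to 0.42, adjusted p = 0.823).

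PINK1 (ENSG00000158828, chr1:20633458-20651511), the kinase that starts the ubiquitin route, read 12.0, 10.8 and 10.7 FPKM for siCtrl against 11.5, 11.8 and 10.1 for siNUF2. The groups overlapped, with a log2 fold change of 0.02 (95% interval -0.22 to 0.25, adjusted p = 0.960). PINK1 shares its locus with PINK1-AS on the other strand, which held 2546 to 3821 counts, and whether the counting used strand is not given in the sources used here, so the reads of the pair may not be told apart.

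Of the 5 soluble adaptors none was called by edgeR without the block (adjusted p from 0.191 to 0.848), by DESeq2 or by limma. NBR1 alone had an unadjusted p under 0.05 without the block, as did 2129 of the 11725 genes tested. With the block OPTN was called as lower and NBR1 as higher. SQSTM1 (ENSG00000161011, chr5:179806398-179838078), the ubiquitin and LC3 binding protein p62, read 90.9, 51.0 and 84.3 FPKM for siCtrl against 79.2, 36.0 and 84.2 for siNUF2. Number 2 was lowest in both groups and numbers differed by up to 1.96-fold, more than the groups did. The log2 fold change was -0.16 (95% interval -0.91 to 0.58, adjusted p = 0.848) and -0.21 with the block (adjusted p = 0.168), and it changed sign when single libraries were left out (-0.38 to 0.13). MRNIP and MGAT4B overlap SQSTM1 on the other strand with 1644 to 4517 and 13471 to 17742 counts.

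OPTN (ENSG00000123240, chr10:13099449-13138308), the adaptor that TBK1 phosphorylates, read 5.33, 6.44 and 8.59 FPKM for siCtrl against 3.82, 4.33 and 6.58 for siNUF2. As in BNIP3, number 3 was highest and number 1 lowest in both groups, and the groups overlapped. The means were 6.79 ± 1.66 and 4.91 ± 1.47 (SD, n = 3 each), 72.4% of the siCtrl mean. Its log2 fold change was -0.45 (95% interval -1.01 to 0.12, SE 0.245, adjusted p = 0.396), moving to -0.24 without siCtrl replicate 3 and to -0.71 without siNUF2 replicate 3, and with the block it was called at -0.46 (SE 0.0957, adjusted p = 0.0212). Within numbers 1, 2 and 3 the siNUF2 library was lower by 0.47, 0.54 and 0.37 log2 CPM, and the call with the block was lost without number 3 (adjusted p = 0.105).

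NBR1 (ENSG00000188554, chr17:43170481-43211689), a ubiquitin adaptor related in build to SQSTM1, was the only one of the 10 genes called as higher in either fit. It read 12.3, 14.9 and 11.6 FPKM for siCtrl against 18.4, 15.9 and 14.7 for siNUF2. Only siCtrl library 2 reached into the siNUF2 range, and the means were 12.9 ± 1.73 and 16.3 ± 1.88 (SD, n = 3 each). The log2 fold change of 0.36 (95% interval 0.06 to 0.65, SE 0.127) had an adjusted p of 0.191, and with the block the value was 0.36 (SE 0.0949, adjusted p = 0.0456). The differences within numbers were 0.58, 0.13 and 0.36 log2 CPM, and 1 of the 3 fits with the block and without 1 number kept the call (adjusted p from 0.0213 to 0.235).

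TAX1BP1 and CALCOCO2, related adaptors that also serve the clearance of bacteria and protein aggregates, overlapped between groups, and neither passed the test in either fit. TAX1BP1 (ENSG00000106052, chr7:27739331-27844564) was at 8.56, 8.94 and 8.56 FPKM against 9.09, 8.20 and 9.29, a log2 fold change of 0.05 (95% interval -0.16 to 0.25, adjusted p = 0.838). CALCOCO2 (ENSG00000136436, chr17:48831018-48866522) was at 6.02, 7.25 and 7.15 FPKM against 6.31, 7.87 and 6.99, a log2 fold change of 0.07 (95% interval -0.21 to 0.36, adjusted p = 0.824). The locus of TAX1BP1 overlaps JAZF1 on the other strand, which held 486 to 1432 counts.

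The other genes of the route were grouped in 7 lists of 82 genes, of which 78 passed the filter. Without the block 3 of the 78 were called, 1 higher and 2 lower, and with the block 13 were called, 3 higher and 10 lower. These shares stand beside 3.99% and 14.5% of all genes tested. Without the block, an unadjusted p under 0.05 was found for 17 of the 78 and for 2129 of all 11725 genes tested. DESeq2 called 5 of the 78 and 972 of all genes. With limma on log2(FPKM + 1) these counts were 2 and 383. The median log2 fold change over the 78 was -0.03.

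**Figure D3:**
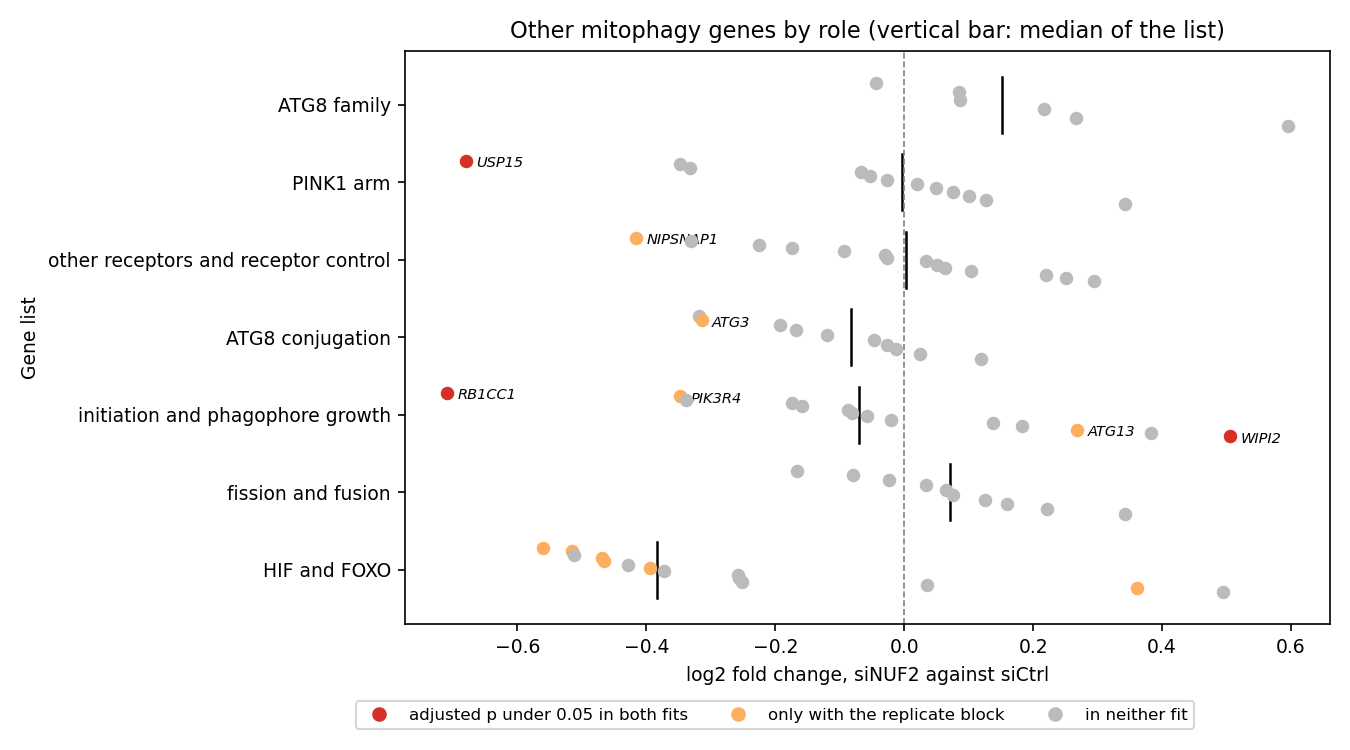
log2 fold change (siNUF2 against siCtrl, x axis, without the block) of 78 other genes in 7 lists by role, red where called in both fits, orange where called with the replicate block only, grey otherwise. RB1CC1 (-0.71) and USP15 (-0.68) are the lowest and are red, as is WIPI2 (0.51), and the black bar at -0.38 is the median of the HIF and FOXO list.

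The ATG8 proteins, which the receptors bind, gave 0 calls of 6 tested by edgeR in either fit, by DESeq2 and by limma, 0 at an unadjusted p under 0.05 in the fit without the block, and a median log2 fold change of 0.15. MAP1LC3B had -0.04 (SE 0.169, adjusted p = 0.930), GABARAPL1 0.08 (SE 0.235, adjusted p = 0.899) and GABARAPL2 0.22 (SE 0.102, adjusted p = 0.318). The largest value of the list, named after it was seen, was that of MAP1LC3A, at 2.64, 4.75 and 3.03 FPKM for siCtrl against 4.33, 6.24 and 4.96 for siNUF2. Its groups overlapped, it was higher within every number (0.72, 0.43 and 0.72 log2 CPM), and its log2 fold change of 0.59 (SE 0.283) had an adjusted p of 0.322, and 0.0546 with the block. Among 14 genes that start the autophagosome, RB1CC1 (FIP200, the scaffold of the ULK complex that is recruited by receptors) fell and WIPI2 (a reader of phagophore lipid that recruits the conjugation machinery) rose. Without the block these 2 of the 14 were called and 5 were at an unadjusted p under 0.05, beside 468 and 2129 of all 11725 genes tested. RB1CC1 read 7.76, 9.54 and 7.94 FPKM for siCtrl against 4.93, 4.83 and 5.47 for siNUF2, with a log2 fold change of -0.71 (SE 0.114, adjusted p = 0.0161). WIPI2 was at 6.86, 6.69 and 6.75 FPKM against 9.63, 9.46 and 9.35, with a log2 fold change of 0.51 (SE 0.0825, adjusted p = 0.0168). Neither gene overlapped between groups, and RB1CC1 was called in 4 and WIPI2 in 1 of the 6 fits without 1 library (adjusted p up to 0.0808 and 0.0746). With the block both kept the call in each of the 3 fits without 1 number (adjusted p up to 0.0125 and 0.0131). ULK1, the kinase of that complex, had 0.14 (SE 0.125, adjusted p = 0.635). With the block ATG13 was called as higher and PIK3R4 as lower in this list, and ATG3 as lower among the 10 genes of ATG8 conjugation, where edgeR without the block, DESeq2 and limma called 0 and 2 were at an unadjusted p under 0.05. These 3 were named after their values were seen. In the 3 fits with the block and without 1 number, PIK3R4 was called in 0 (adjusted p from 0.0656 to 0.150), ATG13 in 1 (up to 0.228) and ATG3 in 1 (up to 0.0718).

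In the PINK1 arm, without the block, 4 of 12 tested genes were at an unadjusted p under 0.05, beside 2129 of all 11725. The 1 gene of the 12 that was called, beside 3.99% of all genes tested, was USP15, a deubiquitinase known to oppose mitophagy. It read 2.11, 2.62 and 2.07 FPKM for siCtrl against 1.57, 1.18 and 1.43 for siNUF2, with a log2 fold change of -0.68 (SE 0.146, adjusted p = 0.0449) that passed in 0 of the 6 fits without 1 library (adjusted p up to 0.130). DESeq2 called it and limma did not. With the block USP15 was called (adjusted p = 0.0212) and kept the call in each of the 3 fits without 1 number (up to 0.027). Its 3′ UTR of 12014 nt holds 3 sites TATGGAA, shown with the site in capitals because USP15 was the one gene called in this arm. Of the 78 tested genes of the 7 lists, 13 hold the site, of which 1 was called (USP15), 4 had values above 0 and 9 below 0 (log2 fold changes from -0.68 to 0.38, median -0.08). Of the other 65 genes 2 were called, 29 had values above 0 and 36 below 0, with a median of -0.03. With the block 1 of the 13 and 12 of the 65 were called.
USP15, chr12:62404424-62404430: ctggtggtatcTATGGAAatgatgaagtt
USP15, chr12:62409706-62409712: aaaacaataaaTATGGAAacatcccaaca
USP15, chr12:62412536-62412542: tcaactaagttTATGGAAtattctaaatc
The part of these sites in the levels was not tested. TBK1, which phosphorylates OPTN and SQSTM1, had -0.03 (SE 0.127, adjusted p = 0.942), and USP30, a mitochondrial deubiquitinase, had 0.05 (SE 0.182, adjusted p = 0.927).

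Of 14 genes for other receptors and for the control of receptor proteins, 0 were called by edgeR without the block (2 at an unadjusted p under 0.05), by DESeq2 and by limma, and NIPSNAP1 was called as lower with the block, named after its value was seen. NIPSNAP1 kept that call in 1 of the 3 fits without 1 number (adjusted p up to 0.171), and without the block its log2 fold change ran from -0.78 to -0.24 with single libraries left out. FBXL4, which with PPTC7 keeps BNIP3 and BNIP3L protein low, had 0.03 (SE 0.138, adjusted p = 0.933), and PPTC7 had -0.33 (SE 0.141, adjusted p = 0.266). PGAM5, the phosphatase of FUNDC1, had 0.22 (SE 0.0958, adjusted p = 0.276). The receptors PHB2 (0.10, SE 0.0939, adjusted p = 0.638), BCL2L13 (0.29, SE 0.142, adjusted p = 0.329) and NLRX1 (0.05, SE 0.178, adjusted p = 0.922) did not pass the test. The 10 genes of mitochondrial fission and fusion gave 0 calls by edgeR in either fit, by DESeq2 and by limma, 1 at an unadjusted p under 0.05 and a median of 0.07.

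The HIF and FOXO list, regulators of BNIP3 and BNIP3L with other HIF targets, had the lowest median of the 7 lists, -0.38 without and -0.41 with the block, beside 0.01 over all genes tested. Of 14 tested genes 0 were called by edgeR without the block (4 at an unadjusted p under 0.05), 0 by limma, 2 by DESeq2 (HIF1A and ARNT) and 6 by edgeR with the block, ARNT, EPAS1, HIF1A, NDRG1 and SLC2A1 as lower and VHL as higher, of which all but HIF1A were named after their values were seen. Of all 11725 genes tested, 468 were called without the block, 383 by limma, 972 by DESeq2 and 14.5% with the block. HIF1A, the oxygen-regulated HIF subunit, read 96.7, 96.3 and 94.6 FPKM for siCtrl against 74.9, 65.2 and 75.8 for siNUF2. Its groups did not overlap, and its log2 fold change was -0.39 (SE 0.0895, adjusted p = 0.0528, with the block 0.00958). HIF1A and EPAS1 kept the call with the block in each of the 3 fits without 1 number (adjusted p up to 0.021 for both). ARNT, the partner of HIF1A, had -0.56 (SE 0.129, adjusted p = 0.0554, with the block 0.0208), and kept the call with the block in 2 of the 3 fits without 1 number. FOXO3 had -0.26 (SE 0.150, adjusted p = 0.428). VHL, which marks HIF subunits for degradation, had 0.36 (SE 0.131, adjusted p = 0.197), and its call with the block was lost in each of the 3 fits without 1 number.

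As in BNIP3, number 3 was the highest library for many genes of this list. Of the 14 genes, 8 were highest in number 3 of both groups, as were 17.3% of all genes tested (2023). CA9, a carbonic anhydrase and a standard marker of hypoxia that was also named after its values were seen, read 13.8, 27.9 and 100 FPKM for siCtrl replicates 1, 2 and 3, against 8.18, 25.3 and 74.4 for siNUF2. Its numbers differed by up to 8.18-fold, and its log2 fold change of -0.37 (SE 0.856) had an adjusted p of 0.871, and 0.0565 with the block. NDRG1, a stress gene induced by HIF, was at 18.2, 18.3 and 36.1 FPKM against 12.6, 12.8 and 24.7 (adjusted p = 0.497, with the block 0.00295). SLC2A1, the glucose transporter GLUT1, was at 13.6, 11.3 and 23.3 FPKM against 10.4, 8.0 and 16.1 (adjusted p = 0.510, with the block 0.00699). In each of these 3 genes number 3 was highest in both groups and the siNUF2 library of every number was the lower one. Without the block, single libraries moved the log2 fold change from -1.47 to 0.81 for CA9, from -0.91 to -0.105 for NDRG1 and from -0.79 to -0.10 for SLC2A1. With the block and without 1 number it ran from -0.53 to -0.50 for NDRG1 and from -0.49 to -0.42 for SLC2A1, both called in each of the 3 fits. For CA9 it ran from -0.57 to -0.26, called in 1 of the 3 fits. Within every number the siNUF2 library was also lower for VEGFA and PDK1, and the share of all genes tested that were lower in this way was not computed. The differences were -0.24, -0.14 and -0.36 log2 CPM for VEGFA (adjusted p = 0.261, with the block 0.071). For PDK1 they were -0.45, -0.99 and -0.17 (adjusted p = 0.308, with the block 0.064). The HIF targets ANKRD37 and ADM were not lower within every number. ANKRD37 read 1.54, 1.09 and 1.64 FPKM for siCtrl against 1.86, 2.02 and 2.07 for siNUF2, so its groups did not overlap and every difference within a number was above 0 (log2 fold change 0.49, SE 0.238, adjusted p = 0.327, with the block 0.151). ADM, a secreted peptide induced by hypoxia, had differences of 0.42, -0.44 and 0.11 log2 CPM within numbers (adjusted p = 0.952). VEGFA, PDK1, ANKRD37 and ADM were named after their values were seen. What the libraries of a number share is not given in the labels, and its part in the levels was not tested.

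**Figure D4:**
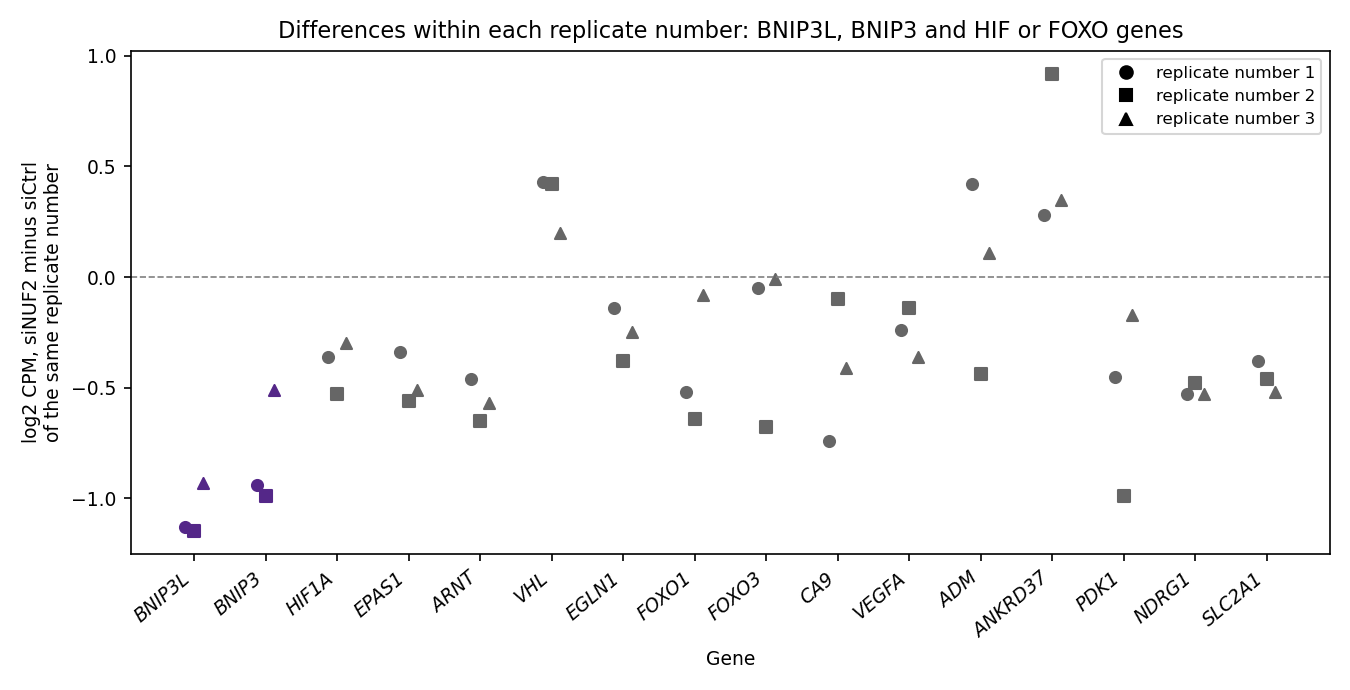
Difference in log2 CPM between the siNUF2 and the siCtrl library of the same replicate number (y axis) for BNIP3L and BNIP3 (purple) and the 14 tested genes of the HIF and FOXO list (grey), with the symbol giving the number. All 3 differences are below 0 for BNIP3L (-1.13, -1.15 and -0.93) and BNIP3 (-0.94, -0.99 and -0.51). They are also all below 0 for HIF1A, EPAS1, ARNT, EGLN1, FOXO1, FOXO3, CA9, VEGFA, PDK1, NDRG1 and SLC2A1. Some of these lie close to 0, as for FOXO3 (-0.05, -0.68 and -0.01), FOXO1 in number 3 (-0.08) and CA9 in number 2 (-0.10). The share of all genes tested with 3 differences of the same sign was not computed, so nothing is read from how many genes do so. All 3 are above 0 for VHL and for the HIF target ANKRD37 (0.28, 0.92 and 0.35), and ADM lies on both sides of 0.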

How the data were processed

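Poly(A) RNA of 3 siCtrl and 3 siNUF2 libraries of 8505C cells was sequenced as paired reads. Per the labels' processing notes and the study's methods, the authors used fastp, HISAT2 and StringTie with GRCh38. Versions, annotation release, strand setting and counting tool are not given in the sources used here. The authors deposited FPKM and whole-number counts per gene, the counts without normalization. All 12 per-sample columns were used. Genes averaging 1 FPKM or more were tested on the deposited counts with edgeR 4.0.16 (R 4.3.3, TMM, quasi-likelihood, Benjamini-Hochberg over 11725 genes), and standard errors are the log2 fold change over the root of F. Libraries with the same number had correlated deviations from their group means (r = 0.383, 0.413 and 0.520). Other numbers gave -0.335 to -0.128. Deviations from a group mean cancel out within the group, so these negative values follow from the positive ones and add no support. On the same-number values the libraries were treated as paired, and the blocked fit is given where it changes a call. This pairing comes from the data, not from the labels. Members and lists were chosen with earlier results of these data known. Named genes were the 10 members, NUF2, genes of the route listed by name (1 not reported here), genes called in each list, and the 3 genes most like BNIP3L. At this size an exact two-sided permutation test could not go below p = 0.1, so none was run. Alternatives used DESeq2 1.42.0 and limma 3.58.1 on log2(FPKM + 1) or log2(FPKM + 0.1).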

Additional observations from a re-analysis of the deposited data

How the results depend on the processing

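In the fit with a replicate block, 1705 genes and 13 pathway genes were called against 468 and 3 without it. There BNIP3 (-0.81), OPTN (-0.46) and NBR1 (0.36) passed the threshold, while no other of the 10 genes changed its call. Without replicate number 1, 2 or 3 and with the block, a check chosen after seeing the data, 1193, 1771 and 1020 genes and 9, 15 and 9 pathway genes were called. Each of these fits held only 2 numbers, so a call kept there says little about how firm it is. In these fits BNIP3 had -0.75, -0.72 and -0.97, OPTN was called without number 1 (-0.45) or 2 (-0.42), and NBR1 was called without number 2 (0.47). Without the filter on low values 188 genes and 1 pathway gene were called and BNIP3L lost its call (-1.06, adjusted p = 0.0732). DESeq2 called 972 genes and 5 pathway genes. BNIP3L was called under the size factors of DESeq2, upper-quartile normalization, a filter at 5 FPKM, DESeq2 and limma with either pseudocount, and the other 9 genes were not. Leaving out single libraries without the block gave 124 to 251 genes, 0 to 1 pathway genes and log2 fold changes from -1.21 to -0.89 for BNIP3L, and none of the other 9 genes was called. Why these counts moved was not tested. No called value changed sign.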
